A study of Mus musculus with 3 samples.

Results

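Nfkbia and 7 other genes of the NF-kB system (Nfkb1, Nfkb2, Rela, Relb, Tnfaip3, Icam1 and Cebpd) were followed through the cell classes of mouse glomerular preparations. The 8 genes are 8 of 31058 rows of the gene table, taken by symbol. The set and its centre, Nfkbia in parietal epithelial and tubule cells, were chosen by summed UMI levels already seen in these 3 libraries, so the levels are given as a description. Total cells from glomeruli, the capillary filters of the kidney, were made into 1 droplet library of 3′ tags per mouse, in which each RNA molecule carries a molecular identifier (UMI). The male and the female mouse had the genotype Pax2.rtTA;TetO.Cre;R26.Confetti, and the third mouse was a female RPC-ERαKO animal with Pax2.rtTA;TetO.Cre;R26.Confetti;ERalphaKO. All 3 were healthy C57Bl/6 mice that were given doxycycline when 20 days old and followed to 90 days. In this system doxycycline lets the Pax2-driven rtTA switch on Cre, so recombination, and with it the Confetti colour label and the loss of oestrogen receptor alpha, is limited to cells in which the Pax2 promoter was active during induction. Each group is 1 mouse and 1 library (n = 1). No difference could be set against a spread between mice, and all intervals cover counting error only.

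NF-kB is a family of dimeric transcription factors built from Rela (p65), Relb, Rel and the processed products of Nfkb1 (p50) and Nfkb2 (p52). In resting cells IkB proteins, of which IkB alpha is the product of Nfkbia, hold the dimers in the cytoplasm. Signals from cytokine or pattern receptors lead to IkB breakdown, and the released dimers switch on chemokines and adhesion molecules together with Nfkbia and Tnfaip3, whose products shut the signal down again. In the kidney this response is best known from injury and inflammation, and Nfkbia RNA also responds within minutes to many stimuli, tissue dissociation among them.

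The proximal sequences of the feedback and target genes are shown because NF-kB recognises a short site of the type that these windows hold. All sequences are from RefSeq on GRCm38.p6, 5′ to 3′ on the strand of the gene, with matches in capitals. Windows of 300 bases, from 250 before to 50 after an annotated start, were on hand for 5 of the 8 genes. Both strands were searched for the kappaB decamer and for the 9-base form GGNNNTTCC, whose reverse strand reads GGAANNNCC, and matches of both forms can overlap. The decamer was found in 8.46% and the 9-base form in 18.5% of all 32851 windows of that length. The Nfkbia stretch (chr12:55492648-55492897, minus strand) ends at the base before the start site, the Icam1 stretch (chr9:21015772-21015879, plus strand) lies upstream of its start, and shorter stretches are given for Tnfaip3 (chr10:19015411-19015438, minus strand) and Nfkb2 (chr19:46304689-46304718, plus strand).
Nfkbia: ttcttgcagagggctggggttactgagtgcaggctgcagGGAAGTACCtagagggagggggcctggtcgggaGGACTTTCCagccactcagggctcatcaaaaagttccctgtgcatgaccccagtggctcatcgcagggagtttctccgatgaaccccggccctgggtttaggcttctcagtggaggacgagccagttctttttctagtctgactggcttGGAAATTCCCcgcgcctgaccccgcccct
Icam1: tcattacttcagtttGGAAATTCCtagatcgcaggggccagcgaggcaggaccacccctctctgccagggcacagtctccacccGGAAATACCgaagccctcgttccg
Tnfaip3: gactGGAATTTCCatcGGAAATCCCCct
Nfkb2: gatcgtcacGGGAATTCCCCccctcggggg
The Nfkbia window held 1 decamer, GGAAATTCCC, whose first base lies at position -29 from the start site, and 9-base matches at -211, -178 and -29. Icam1 had 9-base matches at -153 and -84 and no decamer. The Tnfaip3 window held decamers at -125 and -12 and the first Nfkb2 window at -39, -38 and -11. The Tnfaip3 and Nfkb2 stretches lie inside the GENCODE gene spans given next, which begin at an earlier start, the latter in an annotated exon. The Rela window held neither form. A match describes letters only, and binding was not measured.

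The 8 genes lie on 7 chromosomes in the GENCODE M21 annotation of GRCm38, all as protein-coding genes. Nfkbia (ENSMUSG00000021025) spans chr12:55489410-55492647 on the minus strand, Tnfaip3 chr10:19000910-19015657 on the minus strand, Icam1 chr9:21015985-21028817 on the plus strand and Cebpd chr16:15887286-15891031 on the plus strand. Of the factor subunits, Nfkb1 spans chr3:135584655-135691547 (minus), Relb chr7:19606217-19629438 (minus), Nfkb2 chr19:46304320-46312385 (plus) and Rela chr19:5637483-5648130 (plus). A 3′ tag counts 1 molecule whatever the length of the gene.

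The male, female and female RPC-ERαKO libraries held 44585342, 44942380 and 47522141 UMIs. Filters left 3221 male, 2847 female and 2471 female RPC-ERαKO cells at a median of 7325 to 8857 UMIs, and any pair of libraries had 4 to 8 barcodes in common. Mitochondrial UMIs exceeded 25% in 17.8% to 34.0% of the barcodes, most often in the female RPC-ERαKO library. Esr1, which encodes oestrogen receptor alpha, had 84, 73 and 122 UMIs over all kept cells, and in proximal tubule cells 7.34, 4.63 and 22.6 CPM (counts scaled to 1000000 UMIs). It was thus not lower in the library labelled female RPC-ERαKO, and since a 3′ tag need not lie in the deleted part it neither bears out the label nor goes against it; that library is called the knockout-labelled library below. In parietal cells Esr1 had 1, 0 and 4 UMIs, where a count of 0 allows up to 3.39 CPM.

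Cells were clustered without the 8 genes, and classes were named from marker lists. Parietal epithelial cells, the outer lining of the glomerular capsule, numbered 111 in the male, 71 in the female and 193 in the knockout-labelled library. Their 7 markers, such as Cldn1 and Pax8, were all detected in every library, with a summed level of 3206, 2575 and 3029 CPM. The 122, 91 and 183 proximal tubule cells carried all 8 of their markers at 6895, 7009 and 5932 CPM. Tubule cells are not part of the glomerulus, so those here are what came along with the preparation. Median depths were 9133, 8998 and 11653 UMIs in parietal and 11989, 15078 and 11793 UMIs in proximal tubule cells. One further cluster, numbered 13, had 60, 37 and 97 cells. Its mean log2 scores against the mean of all clusters were almost equal on the proximal tubule (2.32) and parietal lists (2.21). It stayed unnamed. Its leading genes were Igkc, Gc, Ccl2, C3 and Ptgds.

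Nfkbia was highest in lymphocytes and phagocytes and, in the male and knockout-labelled libraries only, also in parietal cells and cluster 13. It was lowest in proximal tubule cells of the female and knockout-labelled libraries and in thick limb cells of the male. In T and NK cells it stood at 1200 CPM in the male, 933 in the female and 823 in the knockout-labelled library, and in mononuclear phagocytes at 1108, 846 and 875 CPM. Parietal cells of the male and knockout-labelled libraries, at 1007 (95% interval 958 to 1057) and 935 (904 to 966) CPM, reached the same range, while those of the female library, at 375 (336 to 418) CPM, lay below the endothelial level. Cluster 13 gave 1188, 466 and 1359 CPM and showed the same low female value. Endothelial cells followed with 586, 511 and 481 CPM, and cluster 18, an unnamed group with both parietal and fibroblast markers, with 582, 436 and 550 CPM.

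The remaining classes held less Nfkbia. Mesangial cells had 206, 264 and 216 CPM, smooth muscle and renin cells 191, 266 and 160 CPM, principal cells 227, 178 and 204 CPM, and intercalated cells 269, 279 and 166 CPM. These 4 classes overlap in their ranges over the libraries and cannot be ordered. Podocytes had 120, 120 and 153 CPM. Thick limb cells had 96.7, 104 and 204 CPM, so in the knockout-labelled library they stood level with principal cells. That class is mixed, with distal convoluted and connecting tubule markers at 4779, 1935 and 3477 CPM beside its own at 13771, 9527 and 9996 CPM. Podocyte markers there summed to 4283, 7151 and 2409 CPM, and erythroid markers to 9.15, 17856 and 14.2 CPM. Proximal tubule cells were lowest in the female and knockout-labelled libraries but not in the male, with 137 (120 to 155), 45.1 (35.6 to 56.3) and 69.1 (60.0 to 79.2) CPM. No class here should lack Nfkbia, so these low values have no floor of free RNA to be set against.

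**Figure D1:**
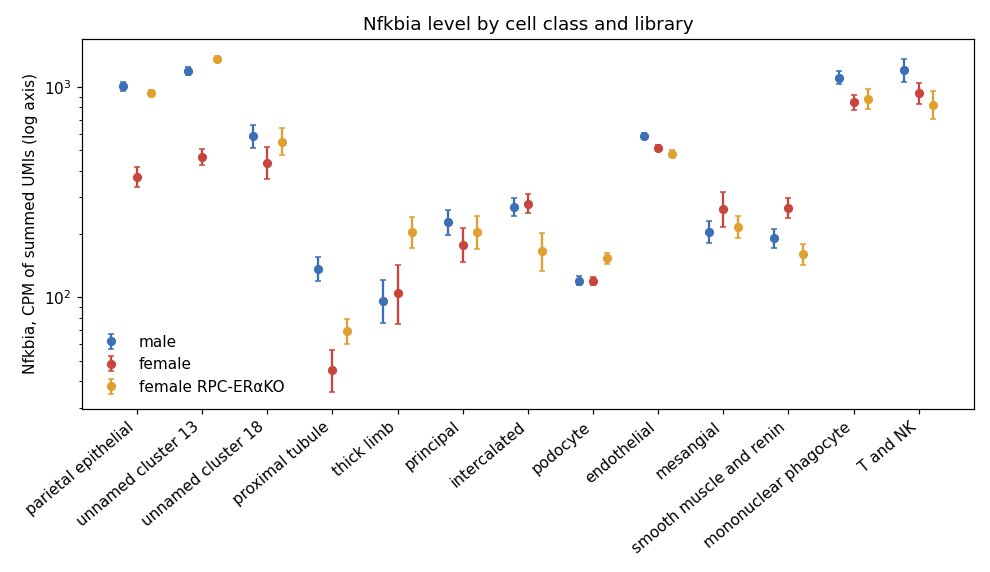
Nfkbia level in CPM of UMIs summed over the cells of a class (log axis) for 13 cell classes, 1 point per library, with bars for the exact 95% Poisson interval (counting error only). The female point sits at 375 CPM in parietal epithelial cells and 466 in cluster 13, below both other libraries, whereas the 3 libraries lie close together in endothelial cells and phagocytes.

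In parietal cells the male library held 1614 Nfkbia UMIs, the female 332 and the knockout-labelled library 3516. The male level was 2.68-fold the female level (log2 ratio 1.42, 95% interval 1.25 to 1.60), and the knockout-labelled level was 2.49-fold (1.32, 1.15 to 1.48). All ratios are of CPM with a pseudocount of 1 CPM. In cluster 13, whose cells were not part of that class, the ratios were 1.35 (1.21 to 1.49) and 1.54 (1.41 to 1.68). Both comparisons share the female library, so its level enters each of them. In the other named classes of at least 30 cells per library, leaving out the proximal tubule, the log2 ratio of Nfkbia lay between -0.48, in smooth muscle and renin cells, and 0.39, in phagocytes, for male over female. For the knockout-labelled over the female library it lay between -0.73, in smooth muscle and renin cells, and 0.35, in podocytes. In the unnamed cluster 18 the ratios were 0.42 (0.11 to 0.73) and 0.33 (0.00 to 0.67).

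Nfkbia was spread unevenly over the parietal cells of each library. With each cell thinned to 4000 UMIs, 60.4% (Clopper-Pearson 95% interval 50.6 to 69.5) of male, 56.3% (44.0 to 68.1) of female and 74.6% (67.9 to 80.6) of knockout-labelled parietal cells held at least 1 Nfkbia UMI. Without thinning these shares were 79.3%, 76.1% and 89.6%. The mean per thinned cell was 2.78, 1.23 and 3.16 UMIs. These intervals cover counting over the cells of 1 library each and compare no groups of mice. At least 5 thinned UMIs were found in 23 of 111 male cells (20.7%, 13.6 to 29.5), 3 of 71 female cells (4.23%, 0.880 to 11.9) and 53 of 193 knockout-labelled cells (27.5%, 21.3 to 34.3), a threshold chosen after the data were seen, with 8, 5 and 27 cells at 4 or 5 UMIs. Those cells held 72.2%, 25.3% and 67.9% of the thinned Nfkbia UMIs of their library. The single cell with most Nfkbia UMIs held 9.29%, 14.2% and 3.24% of the class total. Male and knockout-labelled cells rich in Nfkbia were also deeper, with medians of 17093 and 18549 UMIs against 8876 and 10182 in the rest. On thinned cells the log2 ratio of the male to the female library was 1.18, below the interval of the unthinned value.

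**Figure D2:**
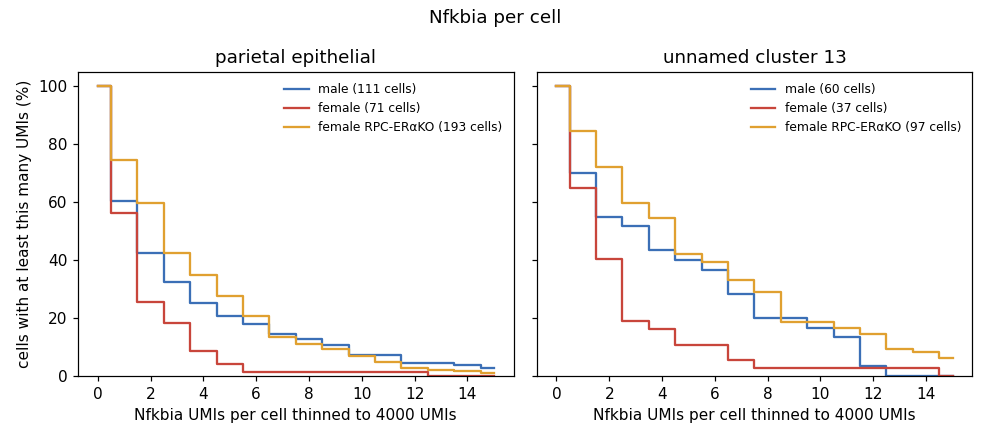
Share of cells (%, y axis) with at least a given number of Nfkbia UMIs (x axis) after each cell was thinned to 4000 UMIs, in parietal epithelial cells (left) and cluster 13 (right), 1 line per library. At 5 UMIs the parietal lines stand at 20.7% for the male, 4.23% for the female and 27.5% for the knockout-labelled library.

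Immediate early genes, which are switched on within minutes of a stimulus and also by tissue dissociation, were as a sum lowest in the female library in parietal cells, as was Nfkbia. Their 16 genes summed to 15203, 9670 and 14301 CPM in the male, female and knockout-labelled library. Fos was at 3616, 1791 and 3444 CPM, Jun at 2685, 1799 and 2752 CPM and Egr1 at 1636, 1269 and 1568 CPM. Beside 17.4% of all genes apart in either direction for the male and 19.5% for the knockout-labelled library, 5 of 13 were at least 1.5-fold higher in the male and 5 of 14 in the knockout-labelled library, where 1 was lower, with median log2 ratios of 0.46 and 0.35. In cluster 13, by contrast, the same list summed to 10515, 10548 and 11209 CPM, nearly level over the libraries, while Nfkbia was 466 CPM in the female and 1188 and 1359 CPM in the others. The list was also higher in podocytes (medians 0.50 and 0.53) and mesangial cells (0.74 and 0.95), where Nfkbia was not 1.5-fold apart. Its medians were 0.35 and -0.13 in endothelial cells, -0.17 and -0.97 in smooth muscle and renin cells, and -0.30 and -0.35 in phagocytes. Heat shock genes had a median log2 ratio of 0.31 (3 of 10 higher) and 0.02 (1 of 10 higher) in parietal cells. Glucocorticoid-responsive genes had medians of -0.32 (4 of 12 lower) and -0.71 (9 of 13 lower). Interferon genes had medians of -0.04 (2 of 13 higher and 5 lower) and -0.07 (2 of 13 higher and 1 lower), and summed to 662, 933 and 888 CPM. The part of any of these lists in the Nfkbia difference was not tested. Smooth muscle and renin markers summed to 1463, 1954 and 3657 CPM in parietal cells, with 2, 4 and 0 of 8 at 0. Tagln made up 1340, 1740 and 2322 CPM of this and Acta2 74.2, 200 and 350 CPM. Ren1 was at 39.3, 11.3 and 961 CPM, with 57.1% of the knockout-labelled UMIs in 1 cell. Myh11 and Cnn1 were at most 1.59 CPM in any library. Podocyte markers summed to 458, 635 and 550 CPM, with none of 9 at 0. Markers of mononuclear phagocytes summed to 112, 75.7 and 98.1 CPM in parietal cells, with 3 or 4 of 6 at 0, and T and NK markers to 0, 0 and 2.13 CPM.

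Across single parietal cells, Nfkbia and the immediate early list went together less closely in the female library. The Spearman correlation, each per UMI of the cell, was 0.71 over 111 male, 0.23 over 71 female and 0.65 over 193 knockout-labelled cells. With heat shock genes it was 0.50, 0.32 and 0.31, and with glucocorticoid-responsive genes 0.51, 0.04 and 0.51. With interferon genes it was 0.08, 0.12 and -0.04, and with the UMIs per cell 0.34, 0.19 and 0.46. These are descriptions over cells of 1 library each, which share depth and preparation. In cells with at least 10000 CPM of immediate early RNA, a level chosen after seeing the data, Nfkbia was 1568 (1490 to 1648) CPM over 50 male cells, 547 (472 to 630) over 20 female cells and 1168 (1127 to 1210) over 102 knockout-labelled cells. In cells under that level it was 151, 262 and 416 CPM. The female library was thus lowest among cells with high immediate early RNA, and the male library was lowest among the rest. The cells at or above the level also differed in depth, with medians of 12286.5, 9505 and 20697.5 UMIs, whose part was not tested. Those under it had medians of 8689, 8953 and 9035 UMIs. In cluster 13 the cells at or above the level had 1810, 746 and 1938 CPM, and those under it 506, 209 and 637 CPM, so there the female library was lowest on both sides.

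**Figure D3:**
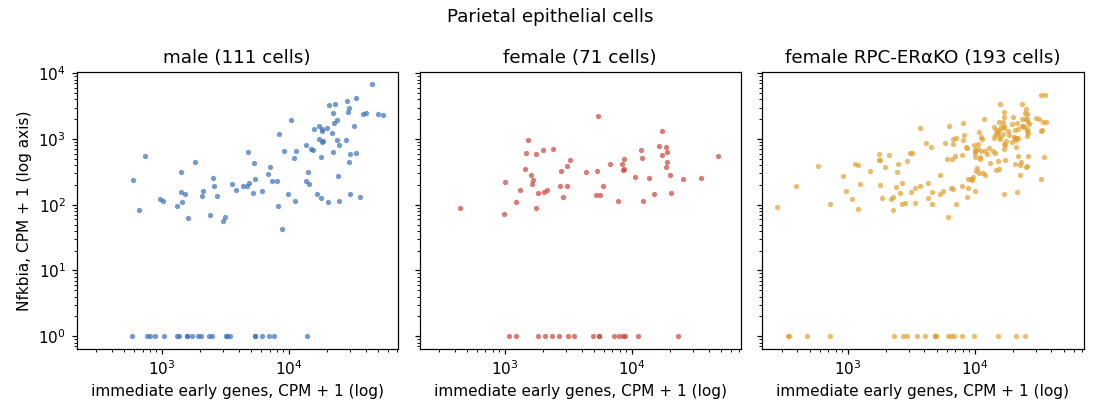
Each point is 1 parietal epithelial cell, with the summed immediate early genes on the x axis and Nfkbia on the y axis (both CPM + 1, log axes), 1 panel per library. Cells with over 10000 CPM of immediate early RNA average 1568 CPM of Nfkbia in the male and 1168 in the knockout-labelled library, against 547 in the female library.

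Of the 8 genes in parietal cells, 2 were at least 1.5-fold apart between the male and the female library (Nfkbia and Cebpd, both higher in the male), beside 17.4% of all 9677 genes with at least 20 summed counts. The median log2 ratio of the 8 genes was 0.35, beside 0.09 for all genes. Between the knockout-labelled and the female library Nfkbia alone was 1.5-fold apart, beside 19.5% of 10883 genes, and the medians were 0.06 and 0.07. A share of 1 or 2 in 8 is near these backgrounds, and Nfkbia itself was known to differ when it was chosen.

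Tnfaip3, the gene of the A20 deubiquitinase and like Nfkbia a feedback inhibitor, was scarce in parietal cells, with 15.6, 10.2 and 13.02 CPM from 25 male, 9 female and 49 knockout-labelled UMIs. Its log2 ratios to the female library, 0.57 (-0.53 to 1.90) and 0.33 (-0.68 to 1.57), have intervals that include both 0 and the ratios of Nfkbia, so at this depth neither was distinguishable. Its main sites were T and NK cells, at 503, 425 and 310 CPM, and phagocytes, at 120, 159 and 113 CPM. Cluster 13 held 31.5, 26.8 and 48.1 CPM. Endothelial cells had 11.2 to 11.9 CPM and podocytes 4.42 to 6.80 CPM.

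The 4 subunit genes were less than 1.5-fold apart in parietal cells. Rela, the main activating subunit, was at 53.0, 51.9 and 51.8 CPM, with log2 ratios to the female library of 0.03 (-0.50 to 0.58) and 0.00 (-0.47 to 0.49). Nfkb1 was at 66.7, 65.5 and 71.0 CPM and its ratios were 0.03 and 0.11. Relb, a subunit of the non-canonical branch, was at 43.7, 36.1 and 43.6 CPM, and Nfkb2, its partner, at 21.2, 30.5 and 25.8 CPM. All 8 of these intervals include 0, and the widest, that of Nfkb2 in the male comparison, runs from -1.30 to 0.26. Nfkb2 was 1.5-fold lower in the male with TMM or DESeq2 scaling, with cells assigned one by one and with cluster 13 added, so its place within 1.5-fold is not settled.

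Cluster 13 differed in part. Nfkb2 stood at 26.9 CPM in the male and at 61.7 and 55.2 CPM in the female and knockout-labelled libraries, a log2 ratio of -1.17 (-1.80 to -0.62) for the male, opposite in sign to Nfkbia. Relb was at 33.4, 27.7 and 51.2 CPM, and for the knockout-labelled library its ratio was 0.86 (0.30 to 1.51), close to the 0.82 (0.25 to 1.48) of Tnfaip3. Nfkb1 was at 66.2, 54.6 and 83.2 CPM, with ratios of 0.27 and 0.60 (0.19 to 1.05). Rela was at 45.9, 55.5 and 57.4 CPM.

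Among the target genes, Icam1, an adhesion molecule that binds leukocyte integrins, was higher in parietal cells than in any other named class in each library. It stood at 214, 158 and 160 CPM in parietal cells and at 113, 168 and 194 CPM in cluster 13. Endothelial cells had 81.5, 87.0 and 49.0 CPM, phagocytes 105, 53.1 and 76.2 CPM, and podocytes 0.917, 4.61 and 2.87 CPM, which gives the level in a class with almost none. The male parietal level was 1.35-fold the female level (log2 ratio 0.43, 0.15 to 0.73), and the knockout-labelled ratio was 0.01 (-0.25 to 0.29). Cells with much Nfkbia also held much Icam1, with Spearman correlations of 0.68, 0.34 and 0.54 over the parietal cells of the 3 libraries. In parietal cells with at least 10000 CPM of immediate early RNA, Icam1 was 331 CPM in the male, 308 in the female and 205 in the knockout-labelled library, so there the female value was not the lowest.

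Cebpd encodes C/EBP delta, a transcription factor of the acute phase response that is induced by many cytokines. In parietal cells it was at 119, 73.4 and 55.8 CPM, with a log2 ratio of 0.69 (0.29 to 1.13) for the male and -0.39 (-0.80 to 0.03) for the knockout-labelled library. Cebpd was thus higher beside Nfkbia in the male comparison only, and the interval of its knockout-labelled ratio spans both signs. Outside the proximal tubule it was high in intercalated cells (170, 206 and 196 CPM) and in the male cells of cluster 18 (443 CPM, against 79.9 and 180.5 in the others). Endothelial cells had 109, 110 and 77.3 CPM and podocytes 22.3, 34.8 and 29.9 CPM. In cluster 13 Cebpd was low, at 36.7, 34.9 and 15.6 CPM, and the ratio of the knockout-labelled library was -1.11 (-1.86 to -0.47), again away from Nfkbia.

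**Figure D4:**
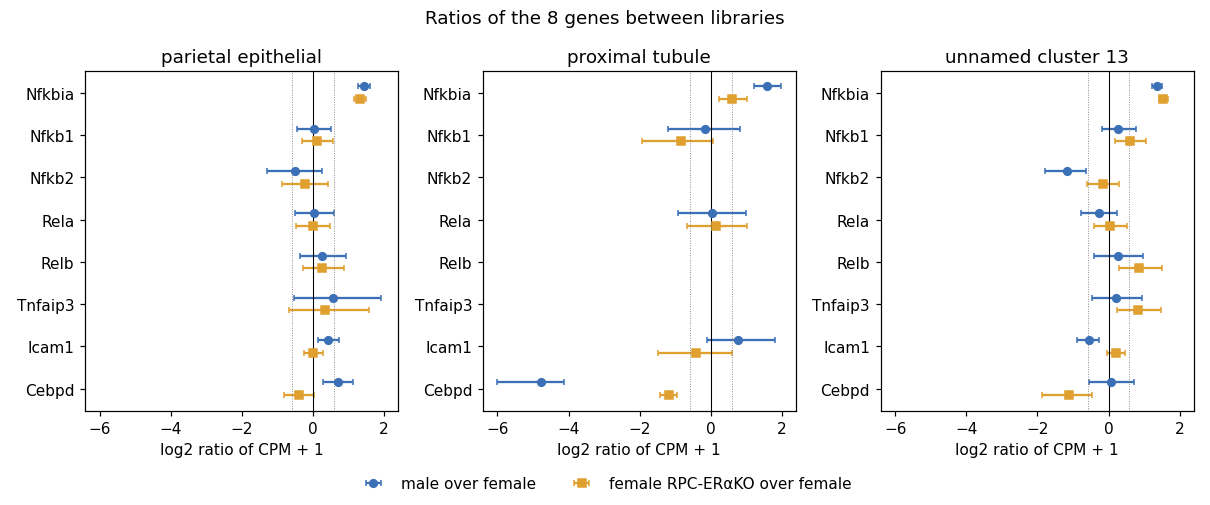
Log2 ratios of CPM + 1 to the female library for the 8 genes, with exact 95% intervals (counting error only), in parietal epithelial cells, proximal tubule cells and cluster 13. Circles are male over female, squares knockout-labelled over female, dotted lines mark 1.5-fold, and genes with under 20 summed counts are not drawn. Nfkbia lies at 1.42 and 1.32 in parietal cells, whereas the 4 subunit genes there lie between -0.50 and 0.27.

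In proximal tubule cells, which reabsorb most of the filtered load, Nfkbia came from 242 male, 78 female and 205 knockout-labelled UMIs. The male level was 2.99-fold the female level (log2 ratio 1.58, 1.23 to 1.99) and the knockout-labelled level 1.52-fold (0.60, 0.23 to 1.01). One male cell held 14.9% of the male UMIs. Thinned to 4000 UMIs, 23.8% (16.5 to 32.3), 13.2% (7.0 to 21.9) and 24.6% (18.5 to 31.5) of cells held at least 1 Nfkbia UMI, while the unthinned shares were nearly level at 44.3%, 46.2% and 49.2%. The thinned means, 0.385, 0.143 and 0.311 UMIs, lie below 1 UMI, so no direction is read from them. These values rest on few cells and on how the class was drawn. With called doublets kept, which makes 126, 95 and 201 cells, the ratios were 0.93 and 0.14, and with each library clustered by itself, which puts 49 male, 32 female and no knockout-labelled cells of cluster 13 into the class, they were 1.62 and -1.58. Immediate early genes summed to 3620, 4731 and 3946 CPM here and were lowest in the male library, the reverse of their order in parietal cells, with medians of -0.34 (4 of 12 lower) and -0.12. The 3 libraries differed in mitochondrial content, with medians of 9.69%, 16.1% and 12.99% of UMIs, whose part in the result was not tested.

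The proximal tubule class joined a pair of clusters that the libraries filled unequally. Cluster 9, led by Miox, Akr1c21 and Acsm2, held 121 male, 49 female and 87 knockout-labelled cells. Cluster 15, led by Aadat, Slc7a12 and Napsa, held 1, 42 and 96 cells, so it was almost without male cells. Within cluster 9, Nfkbia was at 138, 38.2 and 104 CPM, and the ratios to the female library were 1.83 (1.28 to 2.49) for the male and 1.42 (0.81 to 2.13) for the knockout-labelled library. Within cluster 15 it was at 49.9 CPM in the female and 55.6 in the knockout-labelled library, a ratio of 0.15 (-0.33 to 0.66). In cluster 9 immediate early genes summed to 3668, 7003 and 6850 CPM, the reverse of the order of Nfkbia. Across all proximal tubule cells of the male, female and knockout-labelled libraries, the Spearman correlation of Nfkbia with that list was 0.53, 0.06 and 0.36. The part of these genes in the Nfkbia difference was not tested.

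Cebpd followed the clusters and not the libraries alone. Over all proximal tubule cells it was at 6.21, 198 and 86.3 CPM, from 11, 342 and 256 UMIs, which makes the male level 27.5-fold lower than the female level (log2 ratio -4.78, -6.01 to -4.13). In cluster 9 it was at 6.32, 8.48 and 9.66 CPM, with ratios of -0.37 (-1.99 to 1.29) and 0.17 (-1.53 to 1.99). Cebpd in T and NK cells stood at 4.41 to 5.91 CPM, but from 1, 2 and 1 UMIs, too few to set a low level. In cluster 15 it was at 329 CPM in the female and 116 in the knockout-labelled library, a ratio of -1.50 (-1.75 to -1.26). The large male difference over the whole class stood beside a near absence of male cells from cluster 15, whose part in it was not tested. The male ratio over the class also moved with the choice of cells, to -2.41 with at most 10% mitochondrial UMIs, -2.72 with each library clustered by itself, -3.04 with cells assigned one by one, -3.66 thinned and -3.93 with each cell weighted equally.

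**Figure D5:**
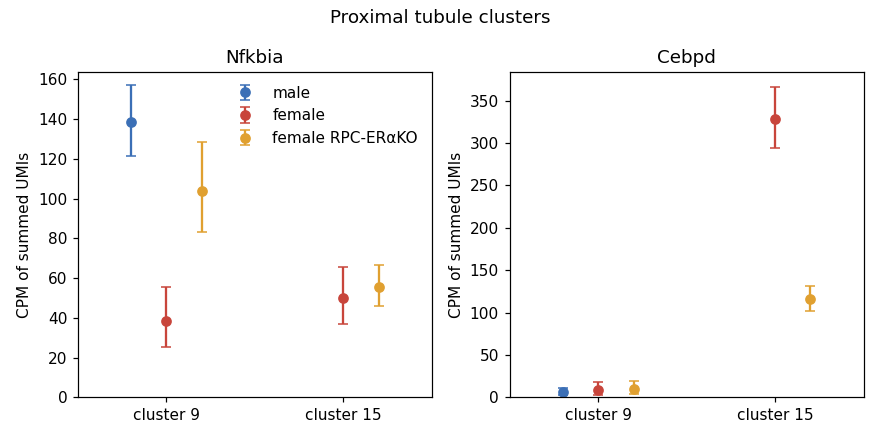
Nfkbia (left) and Cebpd (right) in CPM of summed UMIs in the 2 proximal tubule clusters, 1 point per library with exact 95% Poisson intervals; cluster 15 has no male point because it held 1 male cell. In cluster 9 the female Nfkbia point is lowest at 38.2 CPM, and Cebpd is under 10 CPM in all 3 libraries there but 329 and 116 CPM in cluster 15.

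Of the 8 genes, 5 had at least 20 summed counts in the proximal tubule in each comparison. Between male and female 3 were at least 1.5-fold apart, Nfkbia and Icam1 higher and Cebpd lower in the male, beside 31.9% of 9154 genes. Between the knockout-labelled and the female library 3 were apart, Nfkbia higher and Nfkb1 and Cebpd lower in the former, beside 19.4% of 9543 genes. That Nfkbia call, at 1.52-fold, ends with TMM or DESeq2 scaling (log2 ratios 0.57 and 0.58), with a pseudocount of 10 CPM (0.52) and with at most 10% mitochondrial UMIs (0.39), and the male Icam1 difference also falls under 1.5-fold with either scaling. Nfkbia in tubule cells was part of the choice of these genes, and Cebpd followed the unequally filled clusters. The counts of 3 are therefore not read as an excess over the background. Icam1 was at 16.4, 9.25 and 6.74 CPM from 29, 16 and 20 UMIs and Nfkb1 at 10.2, 11.6 and 6.07 CPM, and all 4 of their intervals include 0. Rela was at 11.9, 11.6 and 12.8 CPM, with ratios of 0.03 and 0.14. Nfkb2, Relb and Tnfaip3 had at most 9 UMIs in any library. The median log2 ratio of all genes was 0.20 for the male comparison, so ratios there are shifted upward by about that much, and 0.04 for the knockout-labelled library.

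In no other tubule class was the female level of Nfkbia 1.5-fold lower than in both other libraries. Thick limb cells (54, 16 and 42 cells) had Nfkbia ratios to the female library of -0.11 (-0.69 to 0.48) and 0.96 (0.45 to 1.51), and intercalated cells (63, 34 and 28 cells) of -0.06 and -0.75 (-1.09 to -0.42). Principal cells (53, 28 and 39 cells) gave 0.35 and 0.20. Within podocytes, the filter cells, Nfkbia varied more between clusters than between libraries, with 283 to 340 CPM in cluster 5, which has podocyte markers beside Cst12 and Dkk3, and 65.1 to 173 CPM in clusters 0, 1 and 2.

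In the other classes of at least 30 cells per library, 0 to 4 of the 8 genes were at least 1.5-fold apart in a comparison. In podocytes 2 of 8 were, Icam1 and Cebpd, both lower in the male than in the female library, beside 3.64% of all genes, and none was for the knockout-labelled library, beside 6.66%. Most of the podocyte Icam1 UMIs, 8 male and 70 female, were in cluster 5. In endothelial cells none was for the male (6.39% of all genes), and Icam1 was lower in the knockout-labelled library (8.95%) with a log2 ratio of -0.82 (-1.05 to -0.62). In mesangial cells Tnfaip3, with 18 and 3 UMIs, was higher and Nfkb2 lower in the male (19.8%), and Nfkb2 was lower in the knockout-labelled library (21.2%). In smooth muscle and renin cells none of 7 was for the male (14.6%), but 4 of 7 were for the knockout-labelled library (18.0%), with Nfkb2 higher and Nfkbia, Tnfaip3 and Cebpd lower. In phagocytes Icam1 was higher in the male (26.0%), and Nfkb2 and Cebpd were lower in the knockout-labelled library (26.4%). Cebpd was at 86.3, 126 and 47.9 CPM in smooth muscle and renin cells and at 66.3, 83.4 and 28.9 CPM in phagocytes, lowest in the knockout-labelled library in both.

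The other genes of the pathway were sorted into 6 lists, whose counts stand beside the 17.4% and 19.5% of all genes that were 1.5-fold apart in parietal cells. In parietal cells the Rel and IkB family beside the members had 1 of 4 measured genes higher and none lower in the male library, and 2 of 5 higher and none lower in the knockout-labelled library, with medians of 0.19 and 0.06. Kinase and adaptor genes had 1 of 16 higher and 1 lower, then 1 of 18 higher and 2 lower (medians -0.10 and -0.03). Negative regulators had none of 11 higher and 2 lower in each comparison (-0.10 and -0.20), and receptors 1 of 8 and 2 of 8 higher with none lower (-0.04 and -0.09). Of ligands only 2 and 3 of 10 were measured, none and 1 of them higher. Inducible targets had 3 of 20 higher and 3 lower in the male library, and 2 of 21 higher and 6 lower in the knockout-labelled library, with medians of -0.11 and -0.09. Apart from the ligands, whose medians were 0.31 and 0.39, no list had a median above 0.19.

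Single targets in parietal cells differed in both directions. Irf1, an interferon regulatory factor that NF-kB induces, was at 190 CPM in the male, 85.8 in the female and 111 in the knockout-labelled library (log2 ratio 1.14, 0.78 to 1.53, for the male). Gadd45b, a stress-response gene, was at 374, 244 and 267 CPM. Vcam1, a vascular cell adhesion molecule, was at 120, 195 and 182 CPM, lower in the male (-0.70, -1.01 to -0.40). Cxcl1, a neutrophil chemokine, was at 137, 124 and 63.0 CPM, with 44.5% of the female UMIs in 1 cell. Ccl2, a monocyte chemokine, was at 11.2, 492 and 19.4 CPM, but 98.9% of its 436 female UMIs were in 1 cell, and 5 UMIs were left without it, against 9 and 37 in the other libraries without their top cell. Birc3 was 1.5-fold lower in the male (24.95 against 39.5 CPM, -0.64, -1.36 to 0.03).

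For the knockout-labelled library, the adaptor Myd88 was at 12.5 CPM against 4.52 in the female library (1.29, 0.02 to 3.40), Ltbr, the lymphotoxin beta receptor, at 38.3 against 23.7 CPM (0.67, 0.02 to 1.43), and Rel and Lcn2 had ratios of 0.85 and 0.80 whose intervals include 0. Traf6 and Tnip2 had ratios of -0.70 and -0.62, also with intervals that include 0. The low female counts, 4 UMIs for Myd88 and 9 for Rel, limit these values.

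In proximal tubule cells fewer genes of the lists could be measured, and 31.9% and 19.4% of all genes were 1.5-fold apart. The Rel and IkB family had 1 of 2 higher in the male and none of 2 apart in the knockout-labelled library (medians 0.20 and -0.09). Kinase and adaptor genes had 2 of 15 higher, then 2 of 16 higher and 2 lower (0.20 and -0.03). Negative regulators had 1 of 7 higher, then 1 of 10 higher and 1 lower (0.40 and 0.07), receptors none of 4 apart, then 1 of 4 lower (-0.04 and 0.28), and ligands 1 of 2 lower, then none of 2 (-0.60 and -0.30). Inducible targets had 5 of 12 higher and 3 lower in the male and 2 of 10 higher and 2 lower in the knockout-labelled library (0.41 and 0.13).

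Nfkbib, a second IkB gene, was at 24.9, 13.3 and 17.2 CPM in proximal tubule cells, higher in the male with a log2 ratio of 0.85 (0.14 to 1.70). Tradd and Cyld were higher in the male at 0.75 (-0.04 to 1.70) and 0.59 (0.07 to 1.16). Plau, the urokinase gene, was at 91.0, 201.8 and 172 CPM and lower in the male (-1.14, -1.43 to -0.88), as was Tnfsf12, the gene of the ligand TWEAK, at 19.2, 44.5 and 35.7 CPM (-1.17, -1.84 to -0.61). The ratios of these genes are over the whole class, whose clusters the libraries filled unequally. No level within a cluster was taken for them, and the part of the clusters was not tested. Male ratios here also carry the upward shift of about 0.20 given above. Ccl5, a chemokine of T and NK cells, had 82 male UMIs, 98.8% of them in 1 cell, none in the female library, which allows up to 1.73 CPM, and 1 in the knockout-labelled library; T and NK markers in the same class summed to 7.34 CPM in the male and 0 in both others. For the knockout-labelled over the female library, Gadd45b (1.09, 0.20 to 2.39) and Traf3 (0.87, -0.00 to 2.02) were higher, and Ier3 (-0.77), Tbk1 (-0.64), the TWEAK receptor gene Tnfrsf12a (-0.62) and Itch (-0.59) were lower. Of the 10 female Gadd45b UMIs 70.0% were in 1 cell, which leaves 3, and of the 73 female Ier3 UMIs 39.7% were, which leaves 44, against 64 in the knockout-labelled library without its top cell.

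Over all class and library sums with at least 20 cells, 32 points in all, the genes whose log2(CPM + 1) was most like that of Nfkbia among 5481 genes with a mean of at least 30 CPM were Spty2d1, Cox7a2l, Hnrnpa1, Fosl2, Sf1, Smchd1, Psmb8 and Rpl7. Their Pearson correlations ran from 0.89 down to 0.86. Points of 1 library share its depth and preparation, and points of 1 class its cell type. Of the 8 genes themselves Nfkb1 came nearest at 0.80, followed by Tnfaip3 at 0.79, Icam1 at 0.77, Nfkb2 at 0.74, Relb at 0.72 and Rela at 0.71. Cebpd, at -0.21, did not follow Nfkbia over the classes.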

How the data were processed

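The authors deposited unnormalised UMI counts for every gene and barcode. Their processing notes, as submitted, name STAR 2.7.5a, Cell Ranger 6.1.2 and the build mm10, and the rule that chose the barcodes is not given in the sources used here. The 8 genes and all gene lists were chosen with earlier results of these data known. Barcodes under 500 genes or over 25% mitochondrial UMIs were dropped, and called doublets (112, 53 and 142, Scrublet method in scanpy 1.11.5) were removed. Leiden clusters (resolution 1, 2000 variable genes, 30 principal components, 15 neighbours) were made without the 8 genes, the pathway and stress lists, mitochondrial, reporter and sex-linked genes. A cluster took the name of the best marker list if that list scored 1 or more and 0.5 above any other list. The score is the mean log2 level of the markers over the mean of all clusters. At least 3 markers also had to be 2-fold up, and the cluster's 10 top genes could hold no more markers of another class than of its own. These minima, and leaving out the haemoglobin list, were set after the clusters were seen, and a different naming moves cells between classes.

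UMIs were summed per class and library and scaled to 1000000 (CPM). Since each group is 1 library, nothing was tested. Ratio intervals are exact conditional 95% Poisson intervals, computed without the pseudocount of 1 CPM, share intervals are Clopper-Pearson (scipy 1.17.1), and a count of 0 is read as a limit of 3 counts. Named are all 8 genes, pathway genes at least 1.5-fold apart with at least 50 summed counts (at most 4 a direction, class and comparison), and the 8 genes most like Nfkbia. A list's medians and counts use genes with at least 20 summed counts. Ratio code was tested on simulated counts. Alternatives used edgeR 4.0.16 and DESeq2 1.42.0 scaling, other pseudocounts, filters, clusterings and weights.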

Additional observations from a re-analysis of the deposited data

Results flagged for a closer look

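Of the 8 genes, 4 were at least 1.5-fold apart in opposite directions in different cell classes under the same comparison, and none of these differences between classes was tested. The share of all genes that do so was not computed, so the count is not read as a trait of these genes. In single classes 3.64% to 31.9% of all measured genes were 1.5-fold apart. For male over female, Cebpd had a log2 ratio of 0.69 in parietal epithelial and -4.78 in proximal tubule cells, where the clusters are filled unequally by the libraries. Icam1 had 0.97 in mononuclear phagocytes, from 68 and 35 UMIs, and -1.55 in podocytes, from 11 and 82 UMIs. Of these podocyte UMIs, 8 and 70 were in cluster 5. For the knockout-labelled over the female library, Nfkbia had 1.32 in parietal epithelial cells and -0.73 in smooth muscle and renin cells, and Nfkb2 had 1.02 in smooth muscle and renin cells, from 30 and 10 UMIs, and -0.61 in mesangial cells, from 31 and 15 UMIs.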

How the results depend on the processing

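Log2 ratios of Nfkbia to the female library in parietal cells under the 15 alternatives lay between 0.95 and 1.47 for the male (1.42 as reported) and between 1.02 and 1.42 for the knockout-labelled library (1.32), and the 2 filters on summed counts cannot move a single ratio. The male ratio moved beyond its counting interval to 1.15 with each library clustered separately, 0.95 with cells assigned one by one to their best marker list, 1.22 with each cell weighted equally and 1.18 with cells thinned to equal UMIs, and the knockout-labelled ratio to 1.02 with cells assigned one by one. In proximal tubule cells the male ratio (1.58) was 1.19 with at most 10% mitochondrial UMIs, 0.93 with called doublets kept, 2.61 with cells assigned one by one and 1.12 with each cell weighted equally. The knockout-labelled ratio there (0.60) was 0.14 with called doublets kept, 1.58 with cells assigned one by one, 1.10 thinned (from means below 1 UMI, so of little weight) and 1.42 in cluster 9 alone. It was -1.58, reversed, with each library clustered separately, where cells of cluster 13 entered the class in the male and female library only. In cluster 9 alone Cebpd was also reversed, at 0.17, and the male ratio of Cebpd, -4.78 over the class, was -0.37. Of its 15 alternatives 7 moved that male ratio. The causes of the other shifts were not tested.

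Of the 8 genes, the count at least 1.5-fold apart in parietal cells was 1 in place of 2 for the male with at most 10% mitochondrial UMIs and 3 under 8 alternatives, where Nfkb2, Tnfaip3 or Icam1 came in (Cebpd dropped out with each cell weighted equally and without its top cell), and 2 in place of 1 for the knockout-labelled library with doublets kept or separate clustering. In proximal tubule cells the knockout-labelled count of 3 of 5 measured genes became 1 of 5 with a pseudocount of 10 CPM and 0 of 2 with at most 10% mitochondrial UMIs. It was 1 of 7 with doublets kept, 8 of 8 with separate clustering and 1 of 1 in cluster 9 alone. With separate clustering, cells of cluster 13 entered the class in the male and female library only. The share of all genes past 1.5-fold was not computed for the alternatives in either class, so these counts show only how the calls move. Thinning, the use of cluster 9 alone and the addition of cluster 13 to the parietal cells were chosen after seeing the data. TMM and DESeq2 scaling moved all male ratios in the proximal tubule by -0.20 and -0.19, and those of the other 3 comparisons run by less than 0.1. No paired analysis was possible because each group is 1 library, and no replicate could be left out for the same reason. Depth limits Tnfaip3, Nfkb2 and Relb in the tubule, where none had over 9 UMIs.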
